A study of Mus musculus with 2 samples.

Results

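The genes followed here were 10 C-type lectin receptors of myeloid cells: Clec4d, Clec4e, Clec4n, Clec4a1, Clec4a2, Clec4a3, Clec7a, Clec12a, Clec10a and Mgl2. They were chosen by name and by no limit on a measured value, with earlier results of these data known. Matching the symbols to the gene table of the deposited matrix found 9 of the 10 among 31053 genes. Clec7a was not analysed here. The gene annotation (GENCODE M21, GRCm38) classes it as a polymorphic pseudogene, and of 82 genes so classed 0 matched the table by identifier, against 21897 of 21951 protein-coding genes.

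The data are single-cell RNA counts of CD45+ cells, CD45 being the surface protein common to leukocytes. The source was MTC-Q1, a line of oral cancer cells from the mouse, grown as tumours under the skin of C57BL/6 mice. One group carried the wild-type line (MTC-Q1 WT) and the other the same line with microRNA-21 knocked out (MTC-Q1 miR-21 KO), so the deletion lies in the cancer cells and the sequenced leukocytes are the host's own. In both groups 1000000 cells were injected, tumours grew for 2 weeks, 5 mg/kg cisplatin was given, and cells were taken 72 hours later, so no group is free of the drug. Each group is 1 sample in 1 library. The sources used here do not state whether a sample pools tumours or the knockout line is 1 clone.

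The matrix marks its 2 libraries by a number at the end of each barcode, and no source used here ties either number to a group. The libraries are therefore called library 1 and library 2, and no direction below is one of wild type against knockout. After filtering, library 1 held 4979 cells with 52056859 UMIs (unique molecular identifiers, each counting 1 captured RNA molecule) and library 2 held 6743 cells with 133870440 UMIs, and 8 barcode sequences occurred in both. The median depth was 6999 UMIs per cell in library 1 and 14829 in library 2. Cells were assigned to types by fixed marker lists that hold none of the lectins, so each type is X-like by its markers. The gates held 101 and 648 inflammatory monocyte-like cells, 188 and 1647 macrophage-like cells, 139 and 418 MHC-II-high monocyte-derived cells, 27 and 125 cDC2-like cells, and 20 and 42 pDC-like cells in libraries 1 and 2. T and NK cells, which should lack these receptors, served as the background. All 12 macrophage markers in library 1 and 11 in library 2 were highest in the macrophage gate, as were all 12 pDC markers in the pDC gate. Of 14 cDC2 markers, 2 in library 1 and 6 in library 2 were highest in the cDC2 gate, which was led by Cd209a and Ccl17 in both. Of 10 markers of the MHC-II-high gate, 5 in library 1 and 1 in library 2 were highest there. That gate is a range rather than a separate type. Of its cells 198 fell in a cluster with 253 macrophage-like cells, 130 in one with 101 monocyte-like and 86 macrophage-like cells, and 127 in the one that held most cDC2-like cells.

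C-type lectin receptors are membrane proteins of phagocytes and dendritic cells that bind sugars, glycolipids and products of dying cells. Mincle (Clec4e), MCL (Clec4d) and Dectin-2 (Clec4n) signal through the adaptor Fcer1g, the kinase Syk and the scaffold Card9 towards inflammatory cytokines. DCIR (Clec4a2) and MICL (Clec12a) carry inhibitory tails that recruit phosphatases, and Clec4a1 and Clec4a3 are close relatives of DCIR. MGL1 (Clec10a) and MGL2 (Mgl2) bind galactose-type sugars, including the truncated glycans common on tumour cells, and take up antigen.

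Position groups the genes in the same way as sequence relation. The 6 Clec4 members lie on chromosome 6 within 368023 bases (GRCm38, GENCODE M21), with Clec4d (123262111 to 123275265, plus strand) and Clec4e (123281789 to 123289870, minus strand) 6523 bases apart. Clec12a lies further along the same chromosome, from 129342691 to 129365303. Mgl2 (70130329 to 70137550) and Clec10a (70156197 to 70170834) stand 18646 bases apart on the plus strand of chromosome 11. Reads of the 3′ assay come from the ends of transcripts, and parts of those ends are shared between relatives. Of the 50-base windows in the last 500 bases of its transcripts, Clec10a shared 13.8% with Mgl2, and Mgl2 shared 9.82% with other genes. For Clec4a2 the share was 8.96%, with Clec4a4 and Clec4b1, so levels of these 3 genes are uncertain where the counting could move reads between copies. The share was 1.1% for Clec4n and 0 for the other 5 members.

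The promoters of Clec4d and Clec4e are shown because these neighbours were highest in the same cell type, and that of Mgl2 because it was highest in cDC2-like cells instead. They are RefSeq windows on GRCm38.p6, from 250 bases before to 50 bases after the gene start, printed 5′ to 3′ along the gene. The windows are chr6:123261857-123262156 for Clec4d (plus strand), chr6:123289822-123290121 for Clec4e (minus strand) and chr11:70130107-70130406 for Mgl2 (plus strand). Capitals mark GAGGAA, the core bound by PU.1 (the myeloid factor encoded by Spi1), or its reverse complement TTCCTC.
Clec4d: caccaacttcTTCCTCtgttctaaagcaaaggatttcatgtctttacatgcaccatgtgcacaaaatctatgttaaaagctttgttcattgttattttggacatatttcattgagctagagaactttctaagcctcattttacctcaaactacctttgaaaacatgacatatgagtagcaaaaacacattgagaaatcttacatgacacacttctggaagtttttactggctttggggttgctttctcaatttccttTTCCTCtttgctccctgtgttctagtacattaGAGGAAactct
Clec4e: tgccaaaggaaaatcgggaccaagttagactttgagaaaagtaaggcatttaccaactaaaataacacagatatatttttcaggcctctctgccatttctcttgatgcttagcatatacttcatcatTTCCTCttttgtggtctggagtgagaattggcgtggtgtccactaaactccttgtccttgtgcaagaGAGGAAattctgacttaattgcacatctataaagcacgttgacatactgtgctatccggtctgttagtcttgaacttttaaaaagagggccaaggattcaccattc
Mgl2: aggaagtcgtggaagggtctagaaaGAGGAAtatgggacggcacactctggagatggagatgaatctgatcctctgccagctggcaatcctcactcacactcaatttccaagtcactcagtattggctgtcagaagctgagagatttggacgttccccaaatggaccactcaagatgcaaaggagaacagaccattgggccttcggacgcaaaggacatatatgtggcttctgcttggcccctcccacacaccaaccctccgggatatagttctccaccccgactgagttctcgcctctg
Searched on both strands, GAGGAA was found 3 times in the Clec4d window, of which 2 lie 7 and 39 bases after the start, while the Clec4e window held 2 matches, 123 and 56 bases before its start. The Mgl2 window held 1 match, 225 bases before the start. Of the 7 members with an entry in the promoter table, 6 held the motif in a window, against 28.3% of all 32851 promoters of the same length. The count of members is per gene, over 8 windows, whereas the share of promoters is per window. TTGCNNAA, a C/EBP pattern, was found in Clec4e and Clec12a and in 10.8% of all promoters. TGANTCA, an AP-1 pattern, was found in Clec4a2 and Clec12a and in 7.81% of all promoters. None of these matches overlapped a match of another of the 3 motifs. A match describes letters only.

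Levels are given as CPM, the UMIs of a gene per 1000000 UMIs of all genes summed over the cells of a type in a library. Ranges in brackets are exact 95% Poisson intervals and cover counting error only. With 1 library per group no test between conditions is possible, and none is given. Because counts are not scaled to transcript length, a gene's levels are compared across types and not with another gene's. The cell type with the highest level was the same in both libraries for 7 of the 9 genes, over 7 types with at least 20 cells in each library. Among all 8658 genes reaching 10 CPM in a type of each library the same held for 53.9%.

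**Figure D1:**
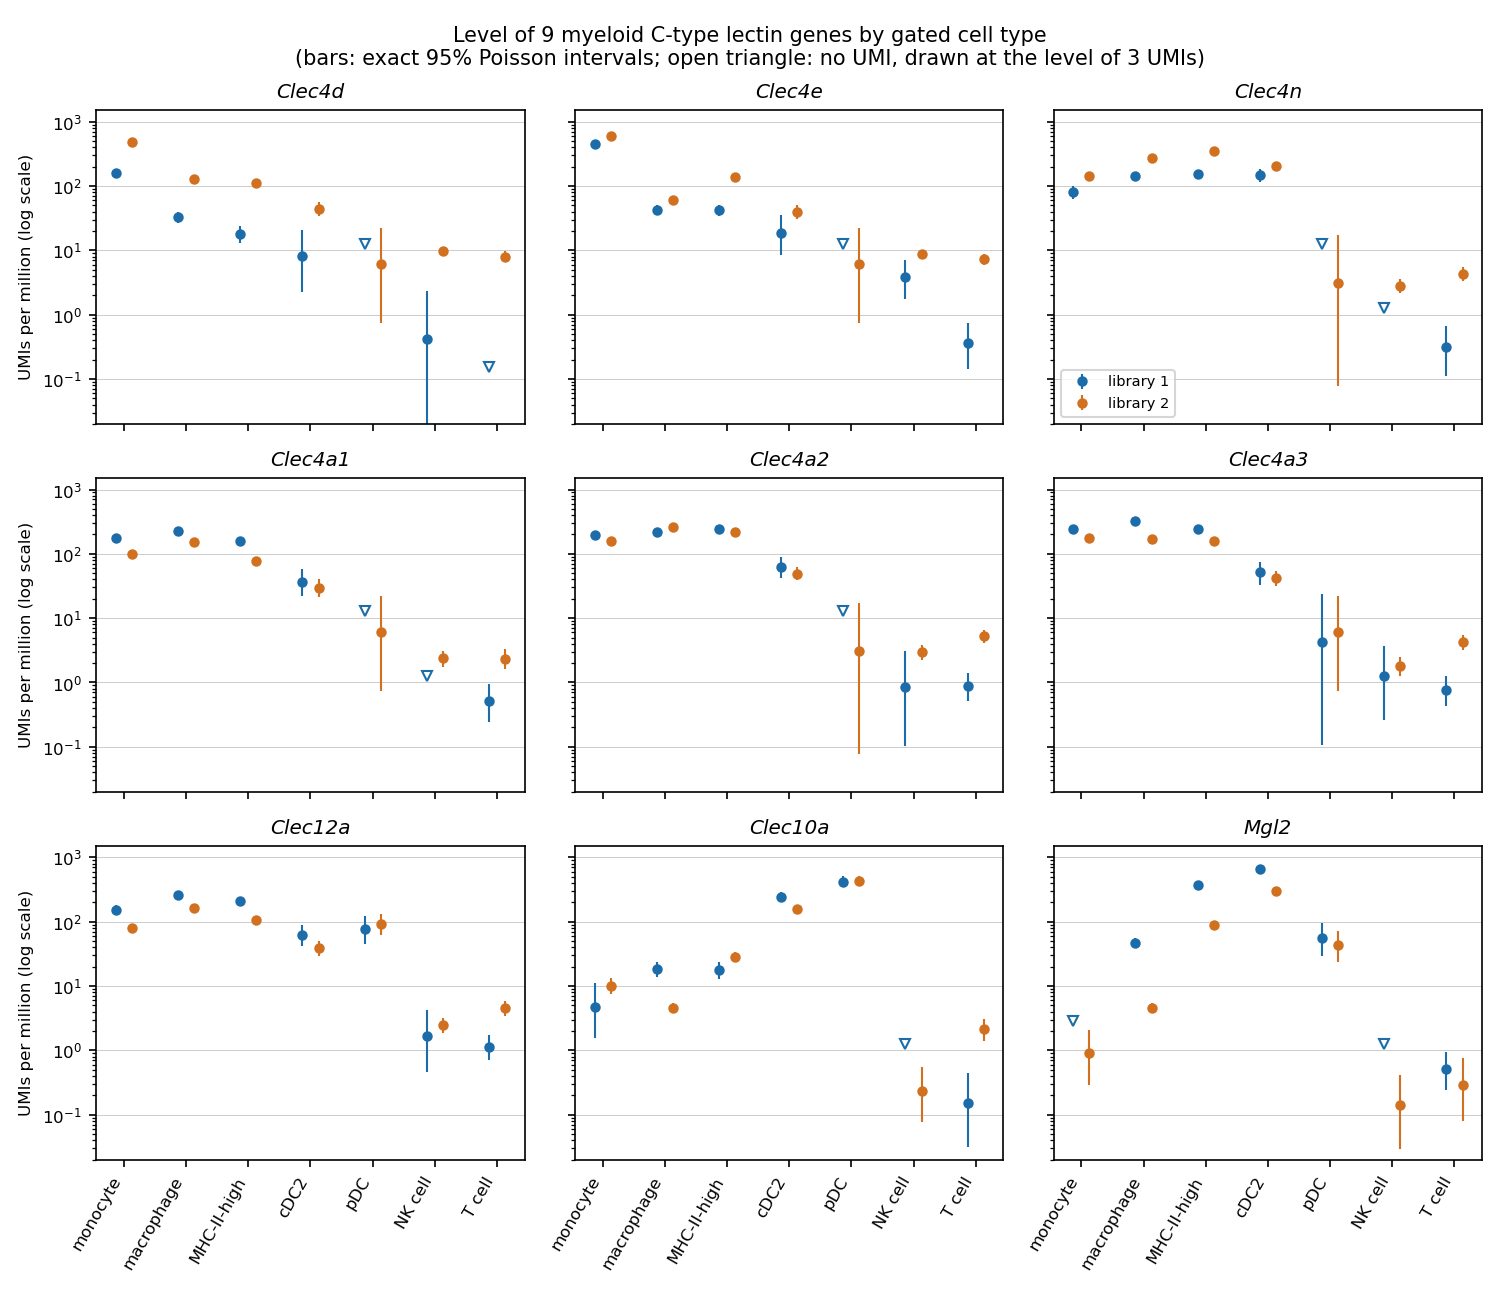
Level of each of the 9 lectin genes in 7 gated cell types, as UMIs per 1000000 on a log axis, with library 1 in blue and library 2 in orange. Bars are exact 95% Poisson intervals and open triangles mark types with no UMI, drawn at the level of 3 UMIs. Clec4d and Clec4e peak in monocyte-like cells, Clec10a in pDC-like and Mgl2 in cDC2-like cells, and T and NK cells stay below 10 for every gene.

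Clec4d and Clec4e, the partners of the Mincle complex, were both highest in inflammatory monocyte-like cells. Clec4e measured 446 (407 to 488) and 589.6 (569.5 to 610.2) CPM in libraries 1 and 2 there. In macrophage-like cells it measured 42.3 CPM (35.5 to 50.1) and 61.1 CPM (58.4 to 64.0), 10.5-fold and 9.65-fold lower. The monocyte excess of Clec4e was thus of like size in both libraries. The second place differed, since MHC-II-high cells stood at 139 CPM in library 2, above macrophage-like cells, and at 42.2 CPM in library 1, level with them. With types from clusters in place of marker gates, the cluster type called MHC-II-high was second for Clec4e in both libraries (163 and 279 CPM). Macrophage-like clusters held 29.0 and 58.8 CPM. The MHC-II-high cluster type (73 and 351 cells) is not the gate's cells, since the cluster with 198 of them was called macrophage-like. In cDC2-like cells Clec4e was at 18.5 and 39.9 CPM.

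Clec4d measured 160.3 CPM (137 to 186) in monocyte-like cells of library 1 and 481 CPM (463 to 499.8) in those of library 2. Macrophage-like cells held 32.5 and 128 CPM, a 4.94-fold and 3.76-fold lower level. The order monocyte-like, macrophage-like, MHC-II-high and cDC2-like held for Clec4d in both libraries, although every one of these 4 levels was higher in library 2. In library 1 the intervals of the MHC-II-high cells (17.9 CPM) and the cDC2-like cells (8.21 CPM, from 4 UMIs) overlapped. With types from clusters the MHC-II-high cluster type, which is not the cells of the gate, stood above macrophage-like clusters instead. Clec4d was at 33.7 and 236 CPM in the first and 20.5 and 117 CPM in the second.

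Clec4n, encoding Dectin-2, was spread over the myeloid types and cDC2-like cells rather than concentrated in monocyte-like cells. MHC-II-high cells led with 156 (140.3 to 172) and 344 (329 to 360) CPM in libraries 1 and 2. Macrophage-like cells followed with 142 and 272 CPM and cDC2-like cells with 146 and 201 CPM. In library 1 the intervals of these 3 types overlapped, while in library 2 all 3 were apart. That lead depended on how types were set. With types from clusters Clec4n was highest in macrophage-like clusters, at 140.1 and 272 CPM. The MHC-II-high cluster type, which is not the cells of the gate, held 109 and 242 CPM. With the stricter gate Clec4n led in cDC2-like cells of library 1 (174 against 152 CPM in MHC-II-high cells). Monocyte-like cells were lowest of these 4 types for Clec4n, at 79.2 CPM (63.2 to 98.1) and 140.6 CPM (131 to 151). Clec4n thus ran opposite to its 2 signalling relatives between monocyte-like and macrophage-like cells.

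The DCIR relatives and Clec12a were shared by monocyte-like, macrophage-like and MHC-II-high cells and low in cDC2-like cells. Clec4a1 was highest in macrophage-like cells, at 229 (213 to 246) and 151 (146 to 155) CPM in libraries 1 and 2. Monocyte-like cells came second for Clec4a1, at 178 and 101 CPM, and cDC2-like cells reached 37.0 and 29.7 CPM. Clec4a3 measured 319 CPM (299.5 to 339) and 171 CPM (167 to 176) in macrophage-like cells. For Clec4a3 the monocyte-like level was 247 CPM in library 1, below the macrophage-like one, and 174 CPM in library 2, where the intervals of the 2 types overlapped.

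Clec4a2, the inhibitory receptor DCIR, kept within a narrow range over the same 3 types. Its levels were 221 and 259 CPM in macrophage-like cells, 239.6 and 221 CPM in MHC-II-high cells, and 193 and 159 CPM in monocyte-like cells. The first 2 of these types overlapped in library 1 and macrophage-like cells led in library 2. Clec12a measured 263 CPM (246 to 281) and 164 CPM (159 to 168) in macrophage-like cells against 154 and 79.3 CPM in monocyte-like cells. With types from clusters Clec4a2 (259 and 277 CPM) and Clec4a3 (292 and 196 CPM) were highest in the MHC-II-high cluster type in both libraries. Clec12a (272 CPM) was highest there in library 1. That cluster type is not the cells of the gate. Unlike the 3 DCIR relatives, Clec12a was also present in pDC-like cells, at 76.3 CPM (45.2 to 120.5, from 18 UMIs) and 92.2 CPM (62.2 to 132, from 30 UMIs). There the DCIR relatives had between 0 and 2 UMIs each.

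The galactose-binding pair was concentrated in dendritic types. Clec10a was highest in pDC-like cells, at 419 (341 to 511) and 436 (367 to 514) CPM in libraries 1 and 2. Next came cDC2-like cells, at 242 CPM (201 to 290.2) and 158 CPM (139 to 179.8), and the intervals of the 2 types did not overlap in either library. In macrophage-like cells Clec10a was at 18.2 and 4.57 CPM. The pDC values rest on 20 and 42 cells, of which 99 and 142 Clec10a UMIs were counted.

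Mgl2 was highest in cDC2-like cells, at 653 (583 to 729) and 300.1 (273 to 329) CPM in libraries 1 and 2. MHC-II-high cells were second, at 372 CPM (348 to 397) and 88.4 CPM (80.9 to 96.5). The pDC-like cells that led for Clec10a held 55.1 CPM (29.3 to 94.2) and 43.0 CPM (23.5 to 72.2) of Mgl2. At a fixed depth of 4000 UMIs Mgl2 was seen in 23.1% of 13 and 21.4% of 28 pDC-like cells with Clec10a. The part of the shared transcript ends in this was not tested. Monocyte-like cells held 0 Mgl2 UMIs in library 1, where 3 UMIs would be 2.83 CPM, and 5 UMIs (0.904 CPM) in library 2.

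Where the types came from clusters instead of marker gates, the second place of Mgl2 did not hold. The cluster called MHC-II-high then held 5.62 and 1.13 CPM of Mgl2, while the macrophage-like clusters held 209 and 16.4 CPM. One of those clusters, with 253 macrophage-like gated cells, also held 198 MHC-II-high ones. In cDC2-like clusters Mgl2 measured 261 and 165 CPM, the highest of the types compared in both libraries. Clec10a still led in pDC-like cells, at 382 and 390.3 CPM.

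Monocyte-like and macrophage-like cells were also set against each other within each library. A gene was counted when its level differed at least 2-fold and the exact interval of the ratio excluded 1.5-fold in each library, given at least 100 UMIs over the 2 types in each. Clec4d and Clec4e were higher in monocyte-like cells in both libraries, as were 3.76% of 4917 genes. Mgl2 had enough UMIs through macrophage-like cells alone, so its difference is given as a description. It was at least 16.6-fold higher there in library 1, where monocyte-like cells held 0 UMIs and 3 were used as the floor. In library 2 the log2 ratio of monocyte-like over macrophage-like cells was -2.33 (-3.97 to -1.07). Higher in macrophage-like cells in both libraries were 8.38% of genes. Between cDC2-like and macrophage-like cells 6 of 9 members passed, but only Mgl2 had 100 UMIs in each type of both libraries. Mgl2 (13.9-fold and 66.2-fold) was higher in cDC2-like cells, as were 2.75% of 4545 genes. Clec10a (13.3-fold and 34.6-fold) was higher in cDC2-like cells too. It had enough UMIs in library 1 through cDC2-like cells (118 UMIs, against 59), so its difference is given as a description. Clec4a1, Clec4a2, Clec4a3 and Clec12a were higher in macrophage-like cells, with folds from 3.59 to 6.21. These 4 had enough UMIs through macrophage-like cells alone, so their difference is given as a description. In cDC2-like cells they had 18 to 30 UMIs each in library 1 and 44 to 73 in library 2. Higher in macrophage-like cells in both libraries were 9.48% of genes. Clec4n did not pass either limit, with log2 ratios of cDC2-like over macrophage-like cells of 0.04 and -0.43.

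The shares of cells with at least 1 UMI gave the same layout once every cell was thinned to 4000 UMIs. Clec4e was seen in 71.3% (exact binomial 95% interval 61.4 to 79.9) of monocyte-like cells in library 1 and 74.1% (70.5 to 77.4) in library 2. Without thinning these shares were 84.2% and 86.9%, at median depths of 10014 and 7672 UMIs. For Clec4d the thinned shares in monocyte-like cells were 36.6% (27.3 to 46.8) and 67.9% (64.2 to 71.5), and the unthinned ones 59.4% and 81.0%. Clec4d was therefore found in fewer of these cells in library 1 at equal depth, while Clec4e was not.

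Clec10a was seen in 65.0% (40.8 to 84.6) and 66.7% (50.5 to 80.4) of pDC-like cells after thinning, and in 85.0% and 76.2% without it. The share of cDC2-like cells with Mgl2 was 44.4% (25.5 to 64.7) and 28.8% (21.1 to 37.6), or 63.0% and 35.2% unthinned. In MHC-II-high cells Mgl2 was seen in 33.8% (26.0 to 42.3) and 10.1% (7.34 to 13.3), or 44.6% and 13.9% unthinned. For macrophage-like cells the Mgl2 shares were 9.04% (5.36 to 14.1) and 0.729% (0.377 to 1.27), or 23.4% and 2.91% unthinned.

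T cells give a background for free RNA. Those with 30 macrophage marker UMIs per 10000 had been set aside, so this background may be understated. Their largest thinned share for any of the 9 genes was 0.731% in library 1 (Clec12a, median depth 6586 UMIs) and 1.26% in library 2 (Clec4d, Clec4e, Clec4n and Clec4a3, median depth 10909 UMIs). The thinned Mgl2 share of macrophage-like cells in library 2 had an interval that overlapped that of T cells for Mgl2, 0.0967% (0.00245 to 0.538), and was not separable from background at this depth. Unthinned, the Mgl2 shares there were 2.91% of macrophage-like cells and 0.29% of T cells. The summed level of T cells over all 9 genes was 4.62 and 38.3 CPM in libraries 1 and 2, against 1463 and 1735 CPM in monocyte-like cells.

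**Figure D2:**
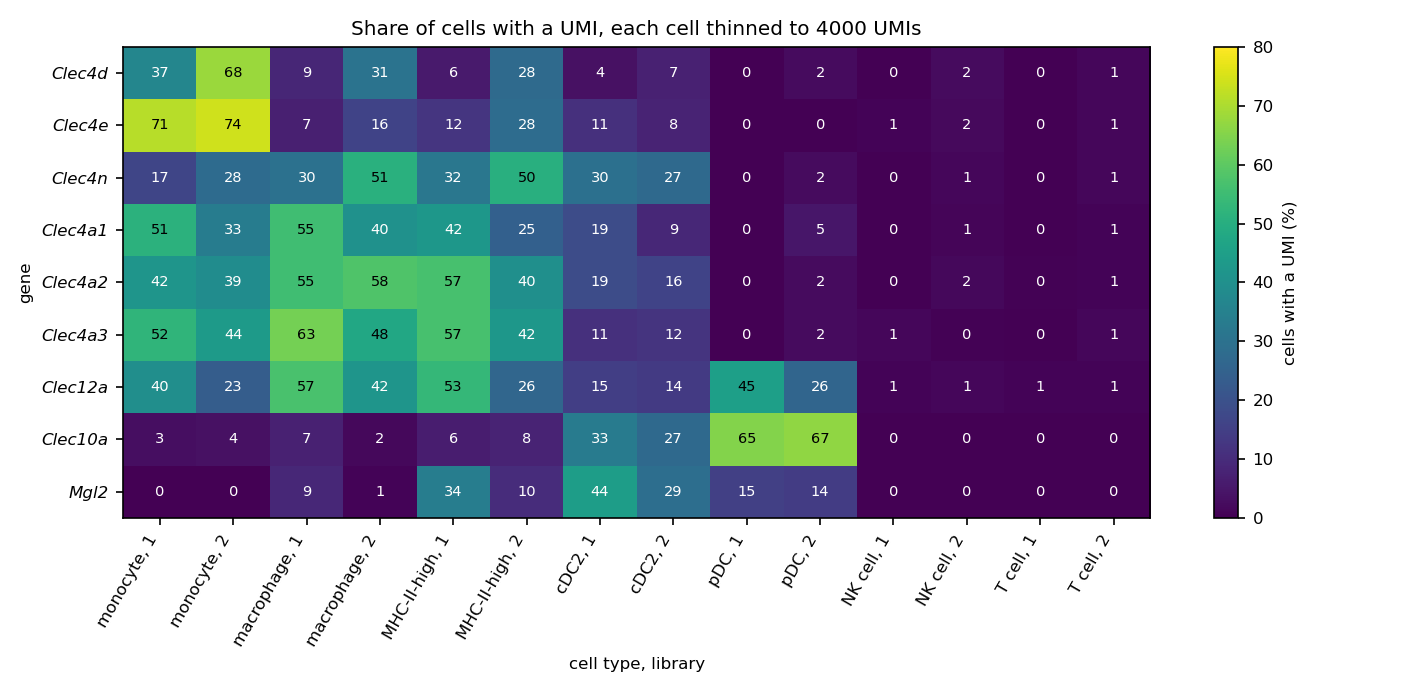
Share of cells with at least 1 UMI of each gene (rows) in each cell type and library (columns), every cell thinned to 4000 UMIs, with the percentage printed and coloured. Clec4e is seen in over 70% of monocyte-like cells of both libraries, Clec10a in 65.0% and 66.7% of pDC-like cells, and no gene in more than 2.24% of T or NK cells.

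A single cell usually carried several of these receptors. At 4000 UMIs the median number of the 9 genes seen was 3 in monocyte-like, macrophage-like and MHC-II-high cells of both libraries. In cDC2-like cells it was 2 and 1, and in T cells 0. Detection of Clec4e was compared between cells with and without Clec4d. In monocyte-like cells it was found in 86.5% (71.2 to 95.5) of 37 cells with Clec4d and 62.5% (49.5 to 74.3) of 64 without in library 1. The figures for library 2 were 78.2% (74.0 to 82.0) of 440 and 65.4% (58.5 to 71.8) of 208. The intervals overlapped in library 1 and were apart in library 2, and the same held in macrophage-like and MHC-II-high cells.

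The contrast was wider among MHC-II-high cells of library 2, where Clec4e was seen in 53.0% (43.5 to 62.4) of 115 cells with Clec4d and 18.8% (14.6 to 23.7) of 303 without. In T cells of library 2, the background type, the intervals were apart too. Clec4e was seen there in 23.1% (5.04 to 53.8) of 13 cells with Clec4d and 0.979% (0.471 to 1.79) of 1021 without. The contrast was therefore not particular to myeloid cells. Clec4n and Mgl2 were compared in cDC2-like cells. There Mgl2 was seen in 58.8% (40.7 to 75.4) of 34 cells with Clec4n and 17.6% (10.4 to 27.0) of 91 without in library 2. In library 1 the intervals overlapped, at 75.0% (34.9 to 96.8) of 8 cells against 31.6% (12.6 to 56.6) of 19. In MHC-II-high cells the 2 shares of Mgl2 overlapped in both libraries, at 43.2% and 29.5% in library 1 and 9.01% and 11.1% in library 2.

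Gates with fewer than 20 cells in library 1 were kept out of the comparison of types. The cDC1-like gate held 14 and 99 cells and showed Clec12a at 214 CPM (167 to 271) and 159 CPM (142 to 178), with Mgl2 at 1 UMI in each library. In library 2 that gate was led by Ctsk, Mmp9 and Acp5 beside Xcr1 and Clec9a, the last pair being cDC1 markers and the first 3 not. The migratory DC-like gate held 14 and 69 cells, and in library 2 its members ranged from 13.6 CPM (Clec10a) to 72.1 CPM (Clec4e). The neutrophil-like gate held 4 and 28 cells. In library 2 it measured 461 CPM (400 to 529) of Clec4d, 418 CPM (360.1 to 483) of Clec4e and 375 CPM (320.3 to 437) of Clec4n. For Clec4d this interval overlapped that of monocyte-like cells. Clec4n and Clec4a2 (285 CPM, 237 to 339) lay above the leading types named above, with intervals that overlapped theirs. In library 1 the same held for Clec4e (674 CPM, from 27 UMIs) and Clec4a3 (524 CPM, from 21 UMIs), on 4 cells. In monocyte-like cells the neutrophil markers summed to 263 and 234 CPM, against 6675 CPM in the neutrophil-like gate of library 2, and S100a9 stood at 0 and 0.361 CPM.

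Ratios are log2 of library 1 over library 2, and the limit is the same as above, at least 2-fold with an interval excluding 1.5-fold. Of the members 7 were measured in all 3 types with at least 50 cells in each library. Clec4d, Clec4e and Clec4n had a ratio below 0 in each type, a sign that 24.6% of 4956 genes kept in all 3. Clec4a1, Clec4a3 and Clec12a had a ratio above 0 in each, as did 36.4% of genes. Clec4a2, the DCIR gene, had -0.23 in macrophage-like, 0.29 in monocyte-like and 0.12 in MHC-II-high cells. Most of these ratios were short of the limit, and the members that passed are named below for each type.

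In macrophage-like cells 2 of 9 members passed the limit as higher in library 1, where 2.45% of 9636 genes did, and 1 as higher in library 2, where 1.2% did. Mgl2 measured 47.0 and 4.54 CPM in libraries 1 and 2, a log2 ratio of 3.37 (3.03 to 3.72). Clec10a measured 18.2 and 4.57 CPM, a ratio of 2.00 (1.53 to 2.45). The ratio of Clec10a ran from 1.15 with types from clusters to 2.88 with T cell levels subtracted. Clec4d measured 32.5 and 128 CPM, a ratio of -1.98 (-2.27 to -1.70). So the pair from chromosome 11 and the MCL gene stood at opposite ends. Of the others, Clec4n had -0.94, Clec4e -0.53, Clec4a2 -0.23, Clec4a1 0.60, Clec12a 0.69 and Clec4a3 0.90, all short of the limit with intervals that exclude 0.

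MHC class II differed between the same macrophage-like cells. H2-Aa, a chain of the antigen-presenting molecule, stood at 3677 and 345 CPM in libraries 1 and 2. H2-Ab1 (3009 and 332 CPM), H2-Eb1 (2700.0 and 265 CPM) and the invariant chain Cd74 (8262 and 1250.0 CPM) went the same way. With macrophage-like and MHC-II-high cells pooled and split into 4 bins of equal size by their summed MHC class II level, Mgl2 was higher in library 1 in each bin that held more than 2 cells of that library. It measured 19.5 against 3.66 CPM in the second bin, where library 1 had 19 cells, 42.1 against 9.06 CPM in the third and 268 against 88.4 CPM in the highest. Mgl2 thus went up with MHC class II within each library as well, although these MHC class II genes are also markers of the MHC-II-high gate.

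In monocyte-like cells 7 members had enough UMIs. None of the 7 passed as higher in library 1, where 2.09% of 5067 genes did, and 1 passed as higher in library 2, where 1.24% did. That one was Clec4d, at 160.3 against 481 CPM, with a log2 ratio of -1.58 (-1.82 to -1.36). Its neighbour Clec4e differed by -0.40 (-0.54 to -0.26), and Clec12a by 0.95 (0.69 to 1.22).

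In MHC-II-high cells 2 of 9 members passed as higher in library 1, where 2.83% of 6282 genes did, and 3 as higher in library 2, where 1.69% did. Mgl2 had a log2 ratio of 2.07 (1.92 to 2.23). Clec4a1 was at 160.4 and 77.0 CPM, a ratio of 1.06 (0.86 to 1.26). On the other side stood Clec4d at -2.64 (-3.12 to -2.20), Clec4e at -1.72 (-2.03 to -1.42) and Clec4n at -1.15 (-1.31 to -0.99). These are the 3 receptors that use Fcer1g. Clec4d had enough UMIs through library 2 alone (636 UMIs, against 44 in library 1), so its difference here is given as a description. Clec10a, higher in library 1 in macrophage-like cells, had the other sign here, at 17.5 and 28.8 CPM with a ratio of -0.72 (-1.24 to -0.23), short of the limit. The median log2 ratio of all genes in this type was 0.13, and relative to it Clec4a1 no longer reached 2-fold. With types from clusters 0 members passed as higher in library 1 in the MHC-II-high cluster type, which is not the cells of the gate. Mgl2 then fell short of 100 UMIs, and Clec4a1 had a ratio of 0.35 (133 and 104 CPM). Clec4e lost its call on the other side, with a ratio of -0.78 (163 and 279 CPM).

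**Figure D3:**
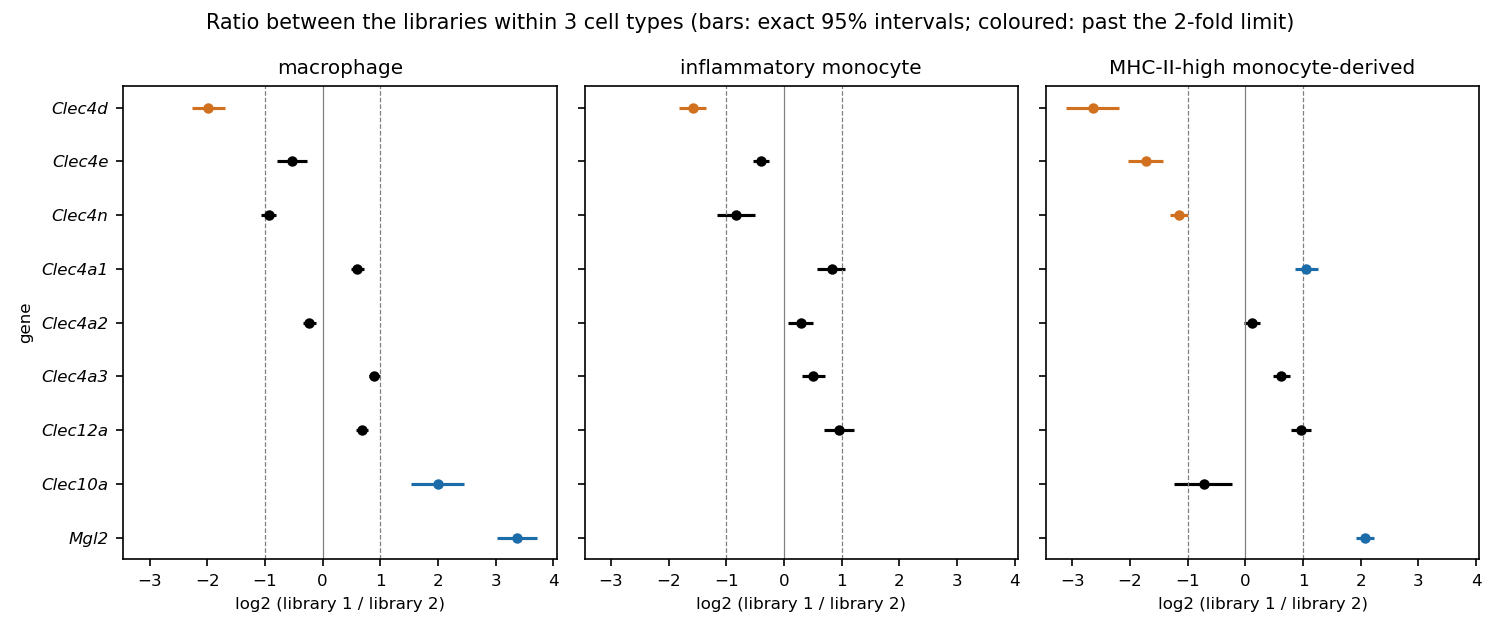
Log2 ratio of library 1 over library 2 for each measured lectin gene in 3 cell types, with exact 95% intervals; dashed lines mark 2-fold, blue points passed the limit as higher in library 1 and orange points as higher in library 2. Clec4d lies left of -1 in all 3 panels, and Mgl2 lies right of 2 in both panels where it was measured.

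Gm42418, a locus that takes up ribosomal RNA reads, also differed between the libraries, at 36480 against 13220 CPM in macrophage-like cells. Leaving out ribosomal, mitochondrial and Gm42418 UMIs shifted the log2 ratios by 0.02 to 0.03 and changed no count.

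The lectins were laid out along the macrophage markers within each library. These markers also set the gates, so the bins in part restate the contrast of monocyte-like and macrophage-like cells. Monocyte-like, macrophage-like and MHC-II-high cells were pooled and split into 4 bins of equal size by their summed level of the 12 macrophage markers (such as C1qa, Apoe and Mertk). Clec4e went from 460.5 to 62.4, 42.2 and 17.5 CPM in library 1 and from 446 to 167.5, 64.5 and 47.9 CPM in library 2. In the lowest bin the 2 libraries' intervals for Clec4e overlapped, and in the others library 2 was higher. Clec4d went from 158 to 24.5 CPM in library 1 and from 370.3 to 125 CPM in library 2, between the lowest and the highest bin. It was lower in library 1 in all 4 bins, with no overlap of the intervals, and the share of all genes that did the same was not counted.

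Clec4a1 ran the other way, from 171 to 274 CPM in library 1 and from 80.9 to 177 CPM in library 2. Clec12a stood at 132 CPM in the lowest and 266 CPM in the highest bin of library 1, and at 72.2 and 158 CPM in those of library 2. Clec4n climbed in library 2, from 192 to 374 CPM, whereas in library 1 it lay between 107 and 148 CPM. Mgl2 was highest in the second bin of library 1, at 332 CPM, and in library 2 it fell from 37.8 CPM in the lowest bin to 0.781 CPM in the highest.

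**Figure D4:**
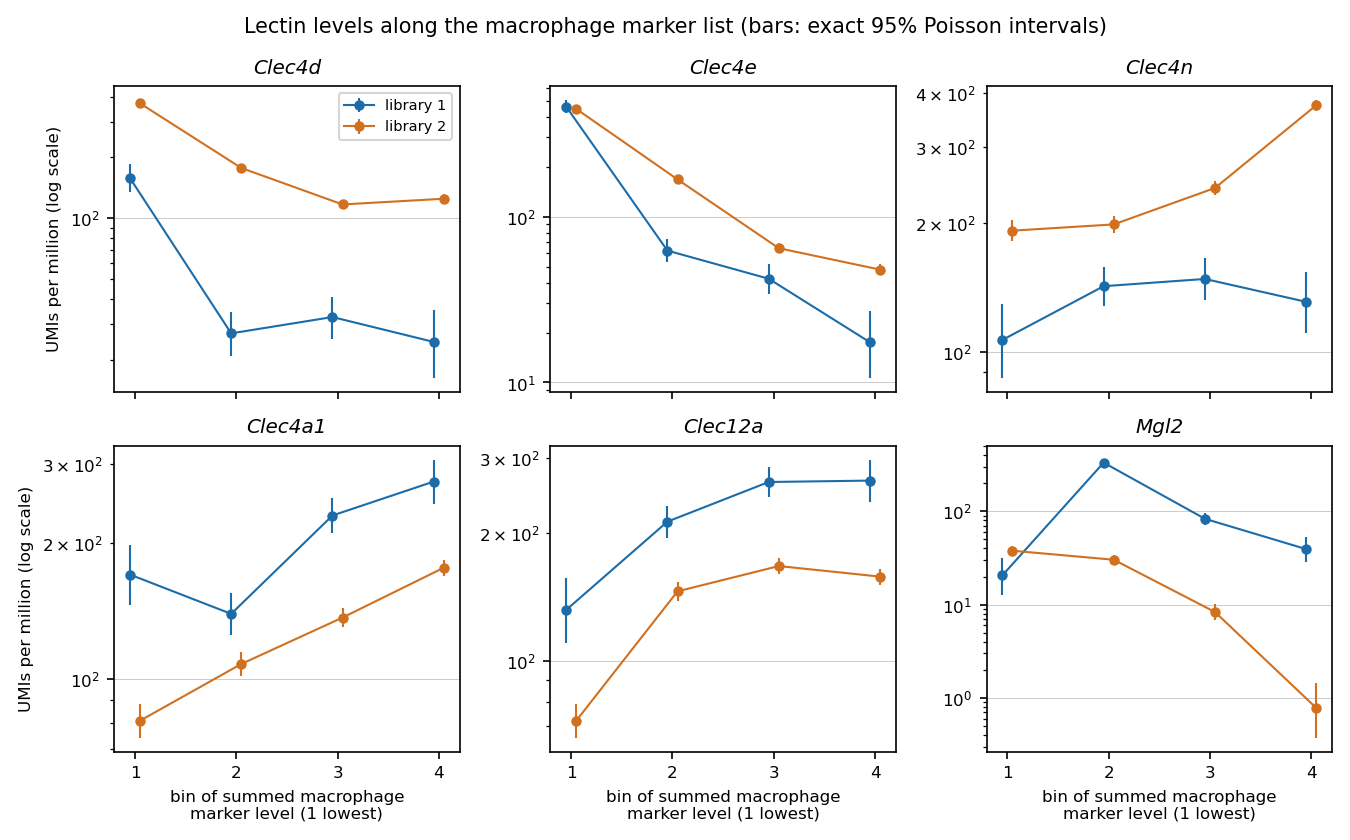
Levels of 6 lectin genes, as UMIs per 1000000 on log axes that differ between panels, over 4 bins of the summed macrophage marker level in pooled monocyte-like, macrophage-like and MHC-II-high cells. Bars are exact 95% Poisson intervals. Clec4d and Clec4e are highest in the first bin of both libraries, Clec4a1 and Clec12a are higher in the last bin than in the first, and the blue and orange lines of Clec4d stay apart throughout.

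Within the macrophage-like gate, cells were divided by the summed Folr2-type markers and by cycling genes, which gives ranges and not types, with 366 cells near the dividing value. The Folr2-high range held 86 and 707 cells, the Folr2-low range 89 and 674, and the cycling range 13 and 266. Clec4e was lower in the Folr2-high range, at 26.5 and 45.2 CPM against 63.5 and 85.1 CPM in the Folr2-low one. Mgl2 was higher in the Folr2-high range in library 1 (69.8 against 25.4 CPM) and lower there in library 2 (1.60 against 8.63 CPM). H2-Aa stood at 3590.0 and 81.1 CPM in the Folr2-high ranges and at 3839 and 722 CPM in the Folr2-low ones. In library 1 Mgl2 and H2-Aa thus differed in opposite directions between these ranges, and in library 2 in the same one. Clec4a1, Clec4a3 and Clec12a were higher in library 1 in all 3 ranges, with no overlap of the intervals. The share of all genes that differed in this way was not counted, so nothing particular to the lectins is concluded from it.

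For each member the 3 genes with the most similar profile were taken from 3688 candidates, by the lower of the 2 libraries' Pearson correlations of log2(CPM + 10) over the 7 types. With 7 points these values describe the profiles, and the points of a library share its depth and chemistry. Clec4d was most like Il18, Slfn4 and D17Wsu92e (lower r from 0.96 to 0.97), and Clec4e like Slfn4, Gm14005 and Il18 (0.96 to 0.97). Slfn4 stood at 394 and 208 CPM in monocyte-like cells. Clec4n was nearest to Creb5 (0.999), Cysltr1 and Sh3pxd2b. Clec4a1 was nearest to Lrp1, Lst1 and Adap2, Clec4a2 to Cd302, Arg1 and Lrrc25, and Clec4a3 to Lst1, Tlr2 and Cd302. Clec12a went with Rbm47, Hsd17b11 and Slc6a6.

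Clec10a was nearest to Kmo, a cDC2 marker of the gates, Apod and Ppm1m, all highest in pDC-like cells. Mgl2 was nearest to H2-DMb2 and H2-Eb1, which are gate markers, and to Ciita (0.94), the master regulator of MHC class II genes. Ciita measured 160.2 and 60.2 CPM in cDC2-like cells.

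Of 66 partner, lectin and regulator genes listed, 65 were in the gene table. Fcer1g, the adaptor of Mincle and Dectin-2, lay between 2751 and 3230.0 CPM in the 3 monocyte and macrophage types of library 1 and between 3638 and 4296 CPM in those of library 2. Syk lay between 92.6 and 156 CPM and between 89.0 and 121 CPM. Card9 was near 10 CPM throughout, from 8.49 to 11.4 CPM and from 8.31 to 11.2 CPM. None of the 3 adaptors (Fcer1g, Tyrobp, Hcst) passed the limit between libraries in any of the 3 types, and none of the 3 phosphatases (Ptpn6, Ptpn11, Inpp5d) did. Their median log2 ratios were -0.50, -0.31 and -0.40 for adaptors and 0.28, 0.48 and 0.29 for phosphatases in macrophage-like, monocyte-like and MHC-II-high cells, beside 0.05, 0.09 and 0.13 over all genes.

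Prkcd, the kinase that links Syk to Card9, was the one kinase past the limit in all 3 types. It was higher in library 1, at 268 against 119 CPM in macrophage-like, 335 against 141 CPM in monocyte-like and 244 against 115 CPM in MHC-II-high cells. In macrophage-like cells Src and Malt1 passed as well. There 2 of 11 kinases and enzymes and 1 of 3 Card9 complex genes were higher in library 1, as were 2.45% of genes. Among 8 output genes, Il1b and Cxcl2 were higher in library 2 in monocyte-like and MHC-II-high cells, as were 1.24% and 1.69% of genes. Il1b measured 891 against 1817 CPM in monocyte-like cells and 818 against 1657 CPM in MHC-II-high cells. In macrophage-like cells 0 of the 7 measured outputs passed, with Il1b at 364 and 343 CPM.

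Of 30 other C-type lectins and related receptors, 9, 7 and 8 had enough UMIs in macrophage-like, monocyte-like and MHC-II-high cells. Clec4b1 was higher in library 1 in macrophage-like cells, at 9.89 against 2.48 CPM. In MHC-II-high cells the mannose receptor Mrc1 was higher in library 1 (334 against 140.1 CPM) and Cd209a, a cDC2 marker, in library 2 (10.2 against 35.8 CPM). Cd209a had enough UMIs through library 2 alone (204 UMIs, against 25 in library 1), so its difference is given as a description. Clec5a, another Syk-coupled receptor, lay between 83.9 and 153 CPM in these types and passed in none. Of 8 regulators 6, 6 and 7 had enough UMIs in the 3 types, and none passed in any. Spi1, which encodes PU.1, lay between 393 and 483 CPM in monocyte-like, macrophage-like and MHC-II-high cells of both libraries and at 1.13 and 16.2 CPM in T cells. Irf4, a factor of cDC2 cells, was highest of these types in cDC2-like cells, at 73.9 and 28.4 CPM.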

How the data were processed

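CD45+ cells of 2 tumour samples were profiled with the 10x 3′ kit. The authors deposited UMI counts per gene and cell for both libraries in 1 matrix, made with Cell Ranger 3.1.0 on mm10, per the submitters' processing notes; the sources used here do not state how strand was handled. Cells needed 200 genes, 500 UMIs and at most 10% mitochondrial UMIs, and the 5% with the highest Scrublet scores per library were removed, since its automatic call marked 0 and 1 cells. Per-library depths are in the text.

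Each cell went to the marker list with the highest mean z-score (at least 0.5, 3 markers detected, 0.1 above the next). Myeloid cells with 15 T, NK or B or 20 fibroblast marker UMIs per 10000 were set aside, B markers not counting for pDC. T, NK and B cells with 30 macrophage marker UMIs per 10000 were set aside too. These rules were set after the data were examined, and members and lists were chosen with earlier results of these data known. Counts were summed per type and library. Ratios needed 100 UMIs over both libraries and 50 cells in each. Ratio calls were tested on simulated data with counting error only, which cannot show how libraries vary. Named genes were the members, the listed genes and 3 nearest genes per member of at least 50 CPM. The alternatives were types from 26 Leiden clusters, doublets kept, T cell levels subtracted, per-cell means, cells of at least 10000 UMIs, a stricter gate, other scalings, limits and depths. Tools were Python 3.11.15, scanpy 1.11.5 and scipy 1.17.1.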

Additional observations from a re-analysis of the deposited data

How the results depend on the processing

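The leading type was shared by 6 to 8 of 9 genes under the 7 alternatives, against 7 in the text, but the types themselves moved. With clusters Clec4n led in macrophage-like cells, Clec4a2 and Clec4a3 in the MHC-II-high cluster type, and Clec12a in that type in library 1. That type is not the cells of the MHC-II-high gate. With the stricter gate Clec4n led in cDC2-like cells of library 1, and with cells of at least 10000 UMIs or per-cell means Clec4a3 led in macrophage-like cells of both libraries. No value changed sign among called results. With a 1.5-fold limit, 5 members were higher in library 1 and 2 in library 2 in macrophage-like cells, 2 and 2 in monocyte-like cells, and 4 were higher in library 1 in MHC-II-high cells. The share of all genes past the 1.5-fold limit was not counted. These larger counts therefore cannot be set against a background, and nothing is concluded from them about the lectins. For macrophage-like cells the count higher in library 2 was 2 with types from clusters, 3 with the stricter gate and 2 with per-cell means, against 1. In monocyte-like cells the count higher in library 1 was 1 with per-cell means and 1 with T cell levels subtracted, against 0, and the count higher in library 2 was 2 in cells of at least 10000 UMIs, against 1. In MHC-II-high cells the count higher in library 1 was 1 with scaling by the median gene and 0 with clusters, against 2. It was 3 with doublets kept, with the stricter gate, with per-cell means and with T cell levels subtracted. The cause was not tested except where the text gives it. The share of all genes past the limit was not counted under any of these alternatives, so nothing is concluded from their counts about the lectins. Over all alternatives the log2 ratio of Mgl2 in macrophage-like cells ran from 3.31 to 3.67 and that of Clec4d from -2.51 to -1.89. Wider were Clec10a in macrophage-like cells (1.15 to 2.88), and in MHC-II-high cells Clec4e (-2.51 to -0.78) and Clec4a1 (0.35 to 1.20). With clusters the count higher in library 2 in MHC-II-high cells was 2, without Clec4e, against 3. Of single levels 579 kept within their interval and 150 did not, 74 single values moving with clusters. In cells of at least 10000 UMIs and in types of at least 50 cells, pDC-like cells were left out and Clec10a led elsewhere. The second of these also left out cDC2-like cells, and Mgl2 then led in MHC-II-high cells. No paired analysis was possible because each group is 1 library. Few cells, 20 and 27, limit the pDC-like and cDC2-like values of library 1, whose median depth per cell was above that of library 2 in these types.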
